A study of Mus musculus with 18 samples.

Results

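Acute phase proteins are plasma proteins that the liver makes in larger amounts during inflammation. Their mRNAs were examined here through 10 genes, the serum amyloid A genes *Saa1*, *Saa2* and *Saa3*, the lipocalin gene *Lcn2*, the alpha-1-acid glycoprotein genes *Orm1* and *Orm2*, haptoglobin (*Hp*), serum amyloid P (*Apcs*), *Itih4* and the fibrinogen beta chain (*Fgb*). The genes were taken by symbol from a list of names that was drawn up with earlier results of these data known. All 10 were found among the 22524 genes with a deposited count, and all 10 were among the 13353 genes tested.

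The data are liver transcriptomes of 18 female C57BL/6 mice aged 15 months, with 1 library per mouse. The 10 A226Y mice carried a heterozygous *Rps2*-A226Y knock-in allele, a ribosomal ambiguity mutation that lowers the accuracy of translation. The 8 WT mice had no mutant allele, and mice of both groups carried a Cre recombinase transgene. In the A226Y mice, Cre under the ubiquitous CMV promoter removes a floxed transcriptional stop cassette. Per the study's description this excision is incomplete, so the mutant livers are mosaics, and cells that keep the cassette have only 1 active *Rps2* allele. Mice are named below by genotype and the animal number in their labels, and each number occurs once. The comparison asks how the mRNA of these genes differed between livers with error-prone ribosomes and WT livers.

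Hepatocytes raise acute phase mRNAs when cytokines of the interleukin-6 family act through gp130 and STAT3, and when interleukin-1 or tumour necrosis factor acts through NF-kB and C/EBP factors. The reaction is known to be fast and reversible. SAA proteins, the most strongly inducible of the group in mice, travel on high-density lipoprotein. Other members bind iron-loaded siderophores (*Lcn2*), drugs and lipids (*Orm1* and *Orm2*) or free haemoglobin (*Hp*), and *Fgb* encodes a chain of the clotting protein fibrinogen.

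Total counts ranged from 23850565 to 62126131 per mouse, with a median of 32058379 in A226Y and 31702989 in WT. *Rps2* itself, summed over both alleles, was 68.6 ± 13.3 CPM (SD, n = 10, where CPM is a count scaled by the size of its library after TMM correction) in the mutants, while the WT mice averaged 114.1 ± 13.03 CPM (SD, n = 8), and every A226Y mouse lay below every WT mouse. Hepatocyte genes dominated the libraries, as the label liver states, and the albumin gene *Alb* was at 48039 CPM or more in every mouse. Of all genes tested, 1910 had an adjusted p-value under 0.05 between the genotypes (14.3%), of which 939 were lower in A226Y (7.03%) and 971 were higher (7.27%). Because whole liver was sequenced, fewer cells of a type and less RNA per cell cannot be told apart in any value below.

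The 3 serum amyloid genes form 1 cluster on chromosome 7, and the letters before their starts are shown because *Saa1* and *Saa2* varied by the largest factors between mice. Those of *Lcn2* and *Orm2*, which followed in size, are given beside them. RefSeq promoter sequences (GRCm38.p6) matched 8 of the 10 members, not *Orm1* and *Hp*. Each line holds the 250 bases before the start of transcription that RefSeq gives, written 5′ to 3′ on the strand of the gene, with matches to 3 short motifs in capitals. The motifs were TTGCNNAA for C/EBP, TTCNNNGAA for STAT and GGGNNNTTCC for NF-kB, searched on both strands. The gene positions given elsewhere in the text come from GENCODE, whose starts differ for some members. By that annotation the *Lcn2* stretch lies inside the gene (chromosome 2, 32384633 to 32388252), and the last bases of the *Saa2* and *Saa3* stretches lie inside theirs.
*Saa1* (chr7:46742981-46743230, minus strand): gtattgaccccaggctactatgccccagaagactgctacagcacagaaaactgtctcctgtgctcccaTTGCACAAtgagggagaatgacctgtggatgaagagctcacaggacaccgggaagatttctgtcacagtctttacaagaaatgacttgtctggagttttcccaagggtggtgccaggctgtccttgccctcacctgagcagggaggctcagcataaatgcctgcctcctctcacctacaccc
*Saa2* (chr7:46751583-46751832, plus strand): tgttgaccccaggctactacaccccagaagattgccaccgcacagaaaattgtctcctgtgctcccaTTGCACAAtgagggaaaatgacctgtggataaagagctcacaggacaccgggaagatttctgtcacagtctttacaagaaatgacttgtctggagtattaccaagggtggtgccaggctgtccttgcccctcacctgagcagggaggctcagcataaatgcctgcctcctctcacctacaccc
*Saa3* (chr7:46715677-46715926, minus strand): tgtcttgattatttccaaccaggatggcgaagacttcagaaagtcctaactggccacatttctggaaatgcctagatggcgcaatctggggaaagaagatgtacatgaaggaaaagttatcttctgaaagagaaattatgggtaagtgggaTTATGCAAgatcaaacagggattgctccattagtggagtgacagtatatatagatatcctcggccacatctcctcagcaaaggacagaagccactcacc
*Lcn2* (chr2:32387740-32387989, minus strand): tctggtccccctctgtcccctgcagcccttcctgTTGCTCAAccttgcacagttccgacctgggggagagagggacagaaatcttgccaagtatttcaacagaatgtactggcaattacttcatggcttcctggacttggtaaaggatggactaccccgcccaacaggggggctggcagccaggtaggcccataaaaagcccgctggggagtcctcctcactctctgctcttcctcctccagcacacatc
*Orm2* (chr4:63362199-63362448, plus strand): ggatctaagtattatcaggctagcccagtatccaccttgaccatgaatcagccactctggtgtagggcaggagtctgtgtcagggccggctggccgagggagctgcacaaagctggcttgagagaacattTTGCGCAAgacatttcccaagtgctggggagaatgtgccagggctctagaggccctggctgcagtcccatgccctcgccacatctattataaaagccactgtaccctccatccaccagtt

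The upstream letters of *Saa1* and *Saa2*, which point away from each other on opposite strands, were 95.6% identical over 249 aligned bases, and those of *Saa1* and *Saa3* were 75.1% identical over 205. The C/EBP letters occurred in 6 of the 8 members (the 5 printed and *Fgb*), against 9.56% of the 32851 promoters in the same table. The STAT letters occurred in 3 of 8 (*Apcs*, *Itih4* and *Fgb*), against 7.02% of promoters, and the NF-kB letters in 0 of 8, against 4.65%. No 2 matches overlapped. A match of letters is a description of the sequence and was not tested as a binding site.

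Between A226Y and WT livers, 0 of the 10 acute phase genes passed an adjusted p of 0.05 in edgeR's quasi-likelihood test with all 18 mice, and 0 had an unadjusted p under 0.05. Over all tested genes the shares were 14.3% and 29.6%. The log2 fold changes (A226Y over WT) were negative for 5 members and positive for 5, with a median of 0.04 against −0.004 over all tested genes. They ran from 3.21 for *Saa2* to −0.35 for *Apcs*. DESeq2 called 3 members, all lower in A226Y (*Saa1*, *Saa2* and *Orm1*, with a background of 18.1% called and 8.77% lower), after it had replaced 9 high counts of 5 members in animals 29, 14 and 33 by lower ones. With no count replaced DESeq2 called 0 (background 18%), with 1 member at an unadjusted p under 0.05 (29.9%). limma-voom with sample weights called 0 (background 22%), also with 1 unadjusted (35.7%). Exact permutation tests on the log2 CPM of the 18 mice, taken 2-sided, gave p-values between 0.277 and 0.938 for the 10 genes.

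The sizes of these fold changes were set by single mice. A226Y animal 29 had the highest level of its genotype for all 10 members, against 25.4% of all tested genes. WT animals 33 and 14 were the 2 highest WT mice for 9 of the members, and the matching share of all tested genes is not given here. The other 9 A226Y mice lay between 5.12 and 12.5 CPM for *Saa2*, but between 5.24 and 47.8 CPM for *Orm2*, where animal 32 was the highest of them. The members took 4.39% of all counts in animal 29, 2.04% in animal 33, 1.67% in animal 14, and between 0.764% and 1.17% in the other 15 mice.

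**Figure D1:**
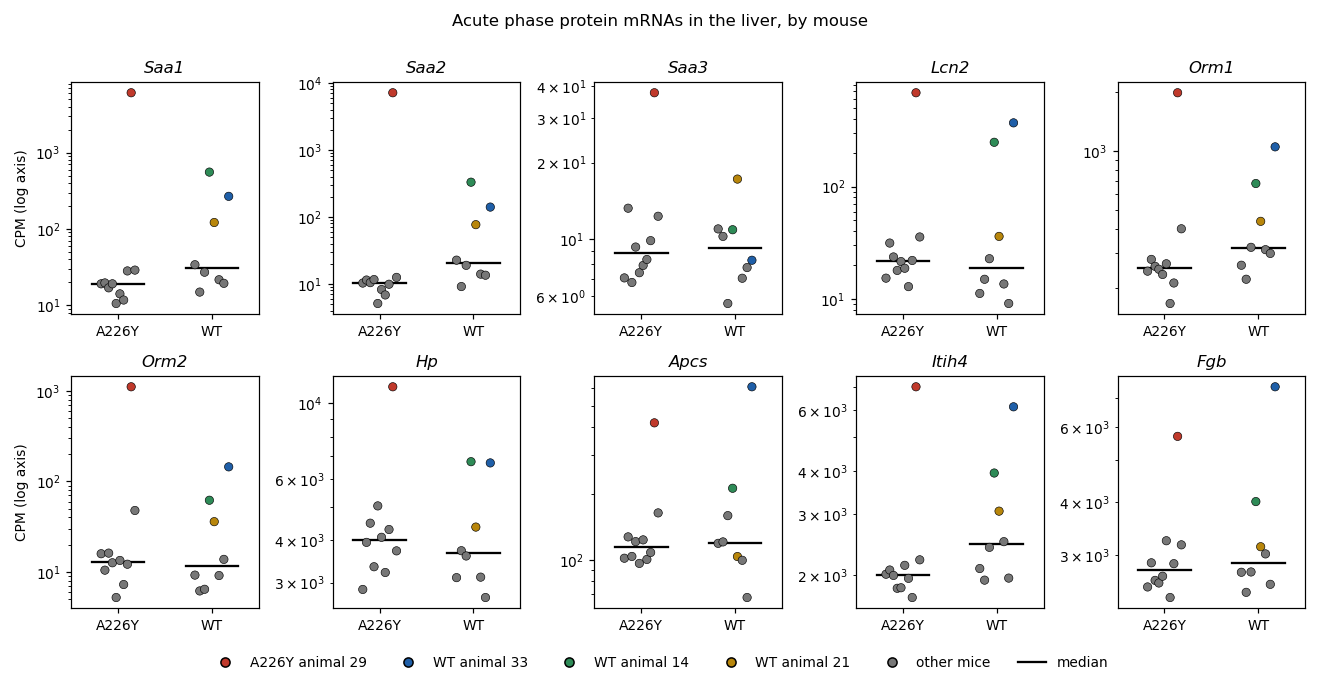
CPM of each of the 10 acute phase genes in every liver (log axis, 1 panel per gene), for 10 A226Y and 8 WT mice, with the median of each genotype as a line. A226Y animal 29 stands above all other A226Y mice in every panel, and WT animals 33 and 14 stand above the other WT mice in most panels, *Saa3* excepted.

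*Saa1* and *Saa2* encode the inducible SAA proteins that hepatocytes secrete. *Saa1* (ENSMUSG00000074115, chromosome 7, 46740497 to 46742980 on GRCm38) ranged in A226Y from 10.5 CPM over a median of 19.1 to 6102 in animal 29, and the next highest A226Y mouse was at 28.9. In WT it ranged from 14.9 over a median of 30.5 to 556 in animal 14, with 267 in animal 33 and 121 in animal 21. So 9 of 10 A226Y mice were below the WT median, 3 of them below the lowest WT mouse, and 1 was above every WT mouse. The means were 627 ± 1924 CPM (SD, n = 10) in A226Y and 133 ± 192 (SD, n = 8) in WT, and the log2 fold change was 2.24 ± 1.40 (SE, edgeR adjusted p = 0.294), opposite in sign to the log2 ratio of the medians, −0.68.

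*Saa2* (ENSMUSG00000057465, chromosome 7, 46751790 to 46754313) had its highest levels in the same mice. In A226Y it ran from 5.12 CPM over a median of 10.4 to 7120.0 in animal 29, with no other A226Y mouse above 12.5. In WT it ran from 9.15 over a median of 20.8 to 330 in animal 14, with 140 in animal 33 and 76.7 in animal 21. Outside animal 29, which is set aside here for its level, 3 A226Y mice lay below the lowest WT mouse and the others above it. Of the WT mice, 7 of 8 were above all 9 of these A226Y mice. The share of all tested genes with such a split is not given here. The log2 fold change over all mice was 3.21 ± 1.59 (SE, edgeR adjusted p = 0.183), and the log2 ratio of the medians was −1.0.

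*Saa3*, the SAA gene that macrophages and other cells outside the hepatocyte also make, had a small range. It lay between 6.78 and 13.3 CPM in 9 A226Y mice (median of all 10, 8.84) and at 37.6 in animal 29. In WT it lay between 5.61 and 17.3 CPM (median 9.29), and its highest WT value was in animal 21, not in 33 (8.29) or 14 (10.9). The genotypes overlapped across nearly their whole ranges, and the log2 fold change was 0.29 ± 0.31 (SE, edgeR adjusted p = 0.554).

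*Lcn2*, lipocalin-2, which starves bacteria of iron by binding their siderophores, was high in the same 3 mice. Its A226Y levels ran from 12.9 CPM over a median of 21.8 to 682 in animal 29, with 35.6 in the next mouse, animal 32. Its WT levels ran from 9.13 over a median of 18.9 to 368 in animal 33, with 247 in animal 14 and 36.0 in the next. Apart from these 3 mice the genotypes overlapped, and the log2 fold change was −0.04 ± 0.93 (SE, edgeR adjusted p = 0.986).

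The alpha-1-acid glycoproteins *Orm1* and *Orm2* differed by far in their base level. *Orm1* was at 166 to 400.1 CPM in 9 A226Y mice and 1981 in animal 29 (median 253), and at 221 to 1049 in WT (median 317), with animals 33 (1049) and 14 (681) highest. *Orm2* was at 5.24 to 47.8 CPM in 9 A226Y mice and 1108 in animal 29 (median 13.04), and at 6.19 to 145 in WT (median 11.5), with the same 2 WT mice highest. Per kilobase of transcript, the median level of *Orm1* was 326 in A226Y and 410 in WT, against 16.8 and 14.9 for *Orm2*. The ratio of *Orm2* to *Orm1* counts was 0.559 in animal 29, 0.138 in animal 33, 0.119 in A226Y animal 32 and under 0.1 in the other 15 mice. Neither gene passed the test (log2 fold changes −0.06 ± 0.46 and 1.80 ± 1.10, edgeR adjusted p = 0.942 and 0.280).

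*Hp* was the member with the highest base level, and its range was narrow. In A226Y it lay between 2865 and 5021 CPM in 9 mice (median of all, 3999) with 11176 in animal 29, and in WT between 2714 and 6758 (median 3652), with animals 14 (6758) and 33 (6702) highest. *Apcs*, the main acute phase pentraxin of mice, which binds amyloid fibrils and bacterial surfaces, lay between 96.4 and 163 CPM in 9 A226Y mice with 418 in animal 29, and between 67.5 and 610 in WT, where animal 33 (610) exceeded animal 29. Their medians were close between genotypes, with log2 ratios of 0.13 and −0.06. Their log2 fold changes were 0.11 ± 0.25 and −0.35 ± 0.38 (SE, edgeR adjusted p = 0.796 and 0.577).

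*Itih4*, of the inter-alpha-trypsin inhibitor heavy chain family, separated the genotypes more than the other abundant members. It lay between 1719.8 and 2211 CPM in 9 A226Y mice (median of all, 2000.3), the narrowest range of any member in those mice as a ratio of highest to lowest, with 6999 in animal 29. In WT it lay between 1931 and 6125 CPM (median 2448), with animals 33 (6125), 14 (3941) and 21 (3057) highest. Of the A226Y mice, 9 of 10 were below the WT median and 3 below the lowest WT mouse, and the log2 fold change over all mice was −0.28 ± 0.28 (SE, edgeR adjusted p = 0.539).

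*Fgb* (chromosome 3) was at 2384 to 3240.2 CPM in 9 A226Y mice and 5696 in animal 29, and at 2452 to 7446 in WT, where animal 33 was the highest of all 18 mice. Its log2 fold change was −0.20 ± 0.21 (SE, edgeR adjusted p = 0.558). The genes of the other 2 fibrinogen chains gave nearly the same values, −0.25 ± 0.22 for *Fga* and −0.21 ± 0.21 for *Fgg*, and both also had their highest levels in animals 29 and 33.

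Leaving out single mice changed both the sign and the calls. These mice were singled out by their levels of the members, so the following p-values describe how the comparison rests on them and are no independent evidence of a genotype difference. Without animal 29, all 10 log2 fold changes were negative (median −0.744, all tested genes −0.009) and 5 of 10 members passed the test, all lower in A226Y, against a background of 19.2% called and 10.3% called lower. They were *Saa1* (−2.83 ± 0.64, edgeR adjusted p = 0.00611), *Saa2* (−3.02 ± 0.62, adjusted p = 0.00349), *Lcn2* (−2.03 ± 0.67, adjusted p = 0.0402), *Orm1* (−0.81 ± 0.26, adjusted p = 0.0372) and *Itih4* (−0.60 ± 0.19, adjusted p = 0.0302). Without WT animal 33 instead, 9 of 10 were positive and 0 passed (background 13.5%), with 1 at an unadjusted p under 0.05 (29.2%). Without WT animal 14 the values for *Saa1* and *Saa2* were 3.12 ± 1.53 and 4.09 ± 1.75, and neither passed (edgeR adjusted p = 0.201 and 0.142).

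With animals 29 and 33 both left out, 3 members passed, all lower in A226Y (background 17.8%, 9.13% lower). These were *Saa1* (−2.60 ± 0.65, edgeR adjusted p = 0.0113), *Saa2* (−2.84 ± 0.63, adjusted p = 0.00591) and *Itih4* (−0.37 ± 0.12, adjusted p = 0.0449). With animal 14 left out as well, *Saa2* alone passed (−1.43 ± 0.36, edgeR adjusted p = 0.0168; background 12.5%, 6.46% lower), *Saa1* was at −1.08 ± 0.38 (0.0655), and the 10 values were split evenly by sign with a median of −0.053. With animal 21 left out too, *Saa2* was at −0.70 ± 0.20 (edgeR adjusted p = 0.0432; background 8.04%, 4.17% lower) and *Saa1* at −0.32 ± 0.23 (0.399). So *Saa2* was called lower in A226Y in the 4 of these fits that leave out animal 29, and its size shrank with each WT mouse removed. These 4 fits share most of their mice and all omit the mouse with the highest *Saa2*, so they are not separate support. With all 18 mice the value was 3.21, and with surrogate variables it was 0.17 (edgeR adjusted p = 0.906).

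**Figure D2:**
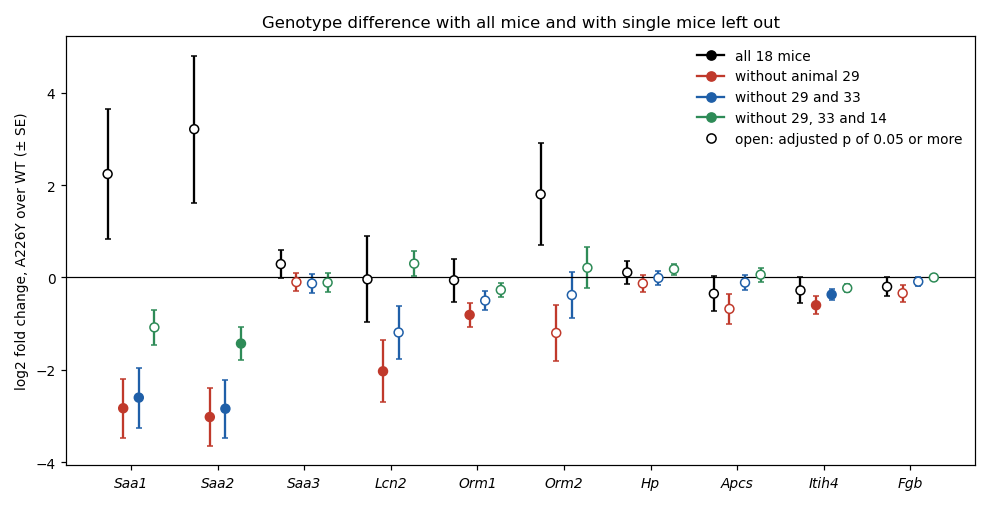
Log2 fold change of A226Y over WT (± SE, edgeR) for each member with all 18 mice and with single mice left out; filled points have an adjusted p under 0.05. With all mice *Saa1*, *Saa2* and *Orm2* lie above 0 with wide errors, without animal 29 every point lies below 0, and without 29, 33 and 14 *Saa2* is the only filled point.

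Against the median of its own genotype, animal 29 stood 685-fold higher for *Saa2*, 320-fold for *Saa1*, 84.9-fold for *Orm2*, 31.3-fold for *Lcn2* and 7.83-fold for *Orm1*. The remaining members ranged from 4.25-fold for *Saa3* down to 2.06-fold for *Fgb*. All 10 members were over 2 times the median in animal 29, against 5.89% of all tested genes in that mouse. Per kilobase of transcript, *Saa2* (10920.3) and *Saa1* (10019.7) stood above *Hp* (8309) in animal 29, whereas in the genotype medians *Hp* (2973 in A226Y, 2715 in WT) stood far above both (at most 50.1). *Saa1* and *Saa2* together took 1.40% of all counts in this mouse and at most 0.0878% in any other.

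WT animal 33 had 8 of 10 members over 2 times the WT median (4.06% of all tested genes) and animal 14 had 5 of 10 (1.01% of all tested genes). Their profiles were not the same. In animal 33 *Lcn2* (19.5-fold) and *Orm2* (12.6-fold) stood above *Saa1* (8.77-fold) and *Saa2* (6.74-fold), and *Apcs* (5.09-fold) and *Fgb* (2.59-fold) were higher relative to the median than in animal 29. In animal 14 *Saa1* (18.2-fold) and *Saa2* (15.8-fold) led, followed by *Lcn2* (13.1-fold) and *Orm2* (5.38-fold). WT animal 21 had 3.98-fold *Saa1*, 3.69-fold *Saa2* and 3.12-fold *Orm2* with *Orm1*, *Hp*, *Itih4* and *Fgb* at most 1.38-fold, and in A226Y animal 32 *Orm2* was 3.66-fold and *Saa1* 1.51-fold.

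**Figure D3:**
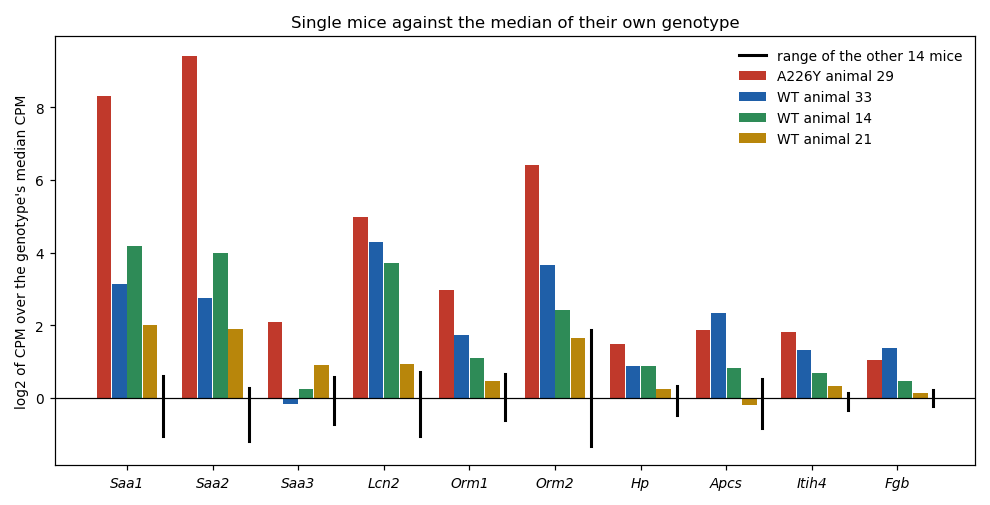
Log2 of the CPM in A226Y animal 29 and WT animals 33, 14 and 21 over the median of the same genotype, for each member, with the range of the other 14 mice as a black line. The bars are tallest for *Saa1*, *Saa2*, *Lcn2* and *Orm2* and short for *Hp*, *Itih4* and *Fgb*, and animal 33 exceeds animal 29 for *Apcs* and *Fgb*.

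The balance of *Saa2* to *Saa1* also differed between mice. It was 1.17 counts of *Saa2* per count of *Saa1* in animal 29, and between 0.352 and 0.701 in the other 17 mice, with 0.593 in animal 14 and 0.525 in animal 33. The genes are near copies, which limits this ratio. Of the 50-base windows of the *Saa1* transcript 14.8% occur in another gene's transcript, mostly *Saa2*, and for *Saa2* the share is 9.12%, for *Orm1* 20.4%, for *Orm2* 22.7% and for *Saa3* 1.78%. Windows of *Lcn2*, *Hp*, *Apcs*, *Itih4* and *Fgb* were not shared, and no annotated gene overlaps a member.

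The members varied together from mouse to mouse within genotypes. After each gene was centred on its genotype mean (log2 CPM), all 45 pairs had a positive Spearman correlation over 18 mice, with a median of 0.66 and a range of 0.30 to 0.96. *Saa1* and *Saa2* formed the closest pair, and *Saa3* had the loosest ties, with a median of 0.37 over its 9 pairs. Without animals 29 and 33 the median over pairs was 0.56 (16 mice), and without animals 14 and 21 as well it was 0.34 with 35 of 45 positive (14 mice). *Hp* then had a median of −0.12 over its 9 pairs, with 3 of them positive, and the highest of these was 0.69 with *Lcn2*. These are descriptions over mice of 2 genotypes that share each library's depth and scaling.

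A mean member score, the average of the 10 genes in SD units after centring, was 2.83 in animal 29, 1.55 in 33, 1.02 in 14, 0.28 in 21 and 0.16 in 32, and below 0 in the other 13 mice. Among the 11931 genes that averaged 1 CPM or more, the genes outside the members whose levels followed this score most closely over 18 mice (Spearman) were *Tmem176b* (0.92), *Fgl1* (0.90), *Tmem176a* (0.88), *Fgg* (0.87), *Ddost* (0.86), *Cyb561* (0.85), *Serpina10* (0.84), *Prg4* (0.83), *Cd302* (0.82) and *Rab7b* (0.82). *Tmem176b* was at 351 CPM in animal 29, 320.2 in animal 33 and 258 in animal 14, against medians of 171 in A226Y and 199 in WT, and its correlation was 0.81 over the 14 mice left without 29, 33, 14 and 21. Over those 14 mice *Ddost* fell to 0.54, *Cyb561* to 0.44 and *Rab7b* to 0.40, while *Fgg* was at 0.80 and *Fgl1* at 0.78. Lowest were *Grk4* (−0.88), *Eea1* (−0.84), *Gpd1l* (−0.84), *Calcoco1* (−0.83) and *Lrit2* (−0.82). *Lrit2* was at 2.47 CPM in animal 29 and 4.16 in animal 33, against medians of 9.50 in A226Y and 8.47 in WT.

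Upstream of the members, the cytokine genes had low counts in whole liver. *Il6*, the main inducer of the reaction, had at most 10 counts in any mouse and only 2 in animal 29 and 3 in animal 33, *Il22* had 0 in every mouse, and these with *Osm*, *Lif* and *Il11* were too low to test. *Il1b*, interleukin-1 beta, had up to 129 counts and was at 3.64 CPM in animal 29, 4.41 in animal 33 and 3.70 in animal 14, against medians of 2.09 in A226Y and 2.27 in WT (log2 fold change −0.20 ± 0.23, edgeR adjusted p = 0.585). *Il1a*, the other interleukin-1 gene, had up to 152 counts (−0.26 ± 0.13, edgeR adjusted p = 0.171) and *Tnf*, tumour necrosis factor, up to 12 (−0.49 ± 0.28, adjusted p = 0.246). Of 14 tested cytokine and receptor genes, 1 was higher in A226Y, *Il22ra1*, a chain of the interleukin-22 receptor (log2 fold change 0.77 ± 0.25, edgeR adjusted p = 0.0427; background 7.27%), and 0 were lower (7.03%). This call was lost without animal 29 (edgeR adjusted p = 0.0541), without animals 29 and 33 (0.0903) and in most other fits that leave out 1 mouse. *Il6ra* (−0.07 ± 0.11), the receptor of interleukin-6, and *Il6st* (−0.07 ± 0.07), the gp130 chain, did not pass. *Il1r1*, the interleukin-1 receptor, was at 167 CPM in animal 29 and 115 in animal 33 but at 23.9 in animal 14, against medians of 56.6 in A226Y and 43.5 in WT, so the 3 mice differed in it.

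Of 26 tested signalling and transcription factor genes, 5 were higher in A226Y (background 7.27%) and 3 were lower (7.03%). The higher ones were the NF-kB pathway genes *Traf6* (0.37 ± 0.06, edgeR adjusted p = 0.0014), *Map3k7* (0.29 ± 0.06, adjusted p = 0.00423) and *Ikbkg* (0.35 ± 0.09, adjusted p = 0.0147), with *Ptpn11* (0.27 ± 0.06, adjusted p = 0.00831) and *Sp1* (0.20 ± 0.05, adjusted p = 0.0179). The lower ones were *Foxa2* (−0.33 ± 0.08, adjusted p = 0.0148), *Ikbkb* (−0.19 ± 0.05, adjusted p = 0.0161) and *Tyk2* (−0.20 ± 0.06, adjusted p = 0.0397). The call of *Tyk2* was lost without animals 29 and 33 (edgeR adjusted p = 0.0748), with library size only (0.0991) and in many fits that leave out 1 mouse, and those of *Ikbkg* and *Sp1* were lost with the length offset (0.0648 and 0.248) and that of *Ikbkb* with library size only (0.0548). The GC offset ended the calls of *Tyk2* (edgeR adjusted p = 0.186), *Ikbkb* (0.0555) and *Sp1* (0.0509). All are small differences, and 2 subunits of the same IkB kinase, *Ikbkg* and *Ikbkb*, had opposite signs. *Stat3* itself was −0.09 ± 0.14, with its 2 highest values in animals 33 (216 CPM) and 29 (148 CPM) against medians of 101 in A226Y and 97.1 in WT. Of 17 tested feedback genes, which STAT3, NF-kB or glucocorticoids induce, 0 passed in edgeR (background 14.3%), with 3 at an unadjusted p under 0.05 (29.6%). *Socs3*, an inhibitor of gp130 signalling, was at 24.5 CPM in animal 29, 20.6 in animal 33 and 8.46 in animal 14, against medians of 6.92 in A226Y and 7.27 in WT.

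Several other acute phase genes were lower in A226Y. Of 35 tested genes on a list of other acute phase and related genes, most of which inflammation is known to raise, 6 were lower (background 7.03%), and their median log2 fold change was −0.266 against −0.004 over all tested genes. *Saa4*, the SAA gene made at a steady level, was lower (172 CPM against 287 in medians; −0.86 ± 0.17, edgeR adjusted p = 0.00389), as were the mannose-binding lectins *Mbl1* (−0.33 ± 0.08, adjusted p = 0.00767) and *Mbl2* (−0.43 ± 0.08, adjusted p = 0.00294). *Hamp2* (−1.20 ± 0.40, adjusted p = 0.0479), *Cxcl1* (−1.38 ± 0.34, adjusted p = 0.0121) and *Pcolce2* (−0.68 ± 0.21, adjusted p = 0.0378) were lower too. The call of *Hamp2* was lost with RLE size factors (edgeR adjusted p = 0.0502) and with the length (0.089) and GC offsets (0.061), and those of *Hamp2* and *Pcolce2* were lost in most fits that leave out 1 mouse, for example at 0.137 for *Hamp2* without WT animal 24 and 0.0846 for *Pcolce2* without WT animal 21. *Cxcl1* was highest in WT animal 33 (17.3 CPM against a WT median of 3.84), its log2 fold change was −0.84 without that mouse, and its call was lost without 29, 33 and 14 (edgeR adjusted p = 0.057). *Mbl2* lay between 324 and 451 CPM in A226Y and between 418 and 577 in WT, with 9 of 10 A226Y mice below every WT mouse and animal 29 (328) among the lowest, so it did not share the members' pattern. Without animal 29, 17 of the 35 were lower (background 10.3%). That mouse was singled out by its levels of the members and had the highest A226Y level for 23 of the 37 listed genes. The count without it is thus no independent evidence of a genotype difference.

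Within this list the 3 high mice again differed. Animals 29 and 33 each had 16 of 35 genes over 2 times their genotype median (5.89% and 4.06% of all tested genes), and animal 14 had 5 (1.01%). These genes were singled out after their values were seen. *Hpx*, hemopexin, which binds free haem, was at 18426 CPM in animal 29 and 11053 in animal 33 against medians of 3659 in A226Y and 3754 in WT. *Mt1* and *Mt2*, the metallothioneins, were at 1019.5 and 779 CPM in animal 29 and at 1294 and 847 in animal 33, against medians of 193 and 87.8 in A226Y and 308 and 150.1 in WT. *Hamp*, hepcidin, which lowers iron export, was at 53.9 CPM in animal 33, while the other 17 mice lay between 704 and 1411 CPM, animal 29 (1195) among them.

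Some genes on a list of negative acute phase proteins, most of which are known to drop in plasma in inflammation, were lower in A226Y too. Of 18 tested, 8 were lower (background 7.03%) and 0 were higher (7.27%), and the median of their log2 fold changes was −0.235. *Igfals*, which holds IGF-1 in the circulation, was lower (104 CPM against 170 in medians; −0.66 ± 0.09, edgeR adjusted p = 0.000701), as was *Serpina6*, corticosteroid-binding globulin (219.5 against 515; −1.21 ± 0.24, adjusted p = 0.00349). The other 6 were *Apoa2*, *Itih1*, *Serpina1c*, *Gc*, *Fetub* and *Pon1*, with log2 fold changes between −0.26 and −0.42. The call of *Apoa2* was lost with RLE size factors (edgeR adjusted p = 0.0535), with library size only (0.0792) and in most fits that leave out 1 mouse, and those of *Pon1*, *Itih1* and *Gc* in some of them (0.0764, 0.0571 and 0.0537 without WT animal 14). The length offset ended the calls of *Apoa2*, *Serpina1c*, *Gc*, *Fetub* and *Pon1* (edgeR adjusted p between 0.0517 and 0.153), and the GC offset those of *Apoa2* (0.0928) and *Itih1* (0.0576). *Alb* (0.08 ± 0.16) and *Rbp4* (0.18 ± 0.11), the retinol carrier, did not pass, and 9 of 10 A226Y mice were above the WT median for each. Animal 29 had the highest A226Y level for 5 of the 18 genes (*Trf*, *Itih1*, *Itih2*, *Serpina7* and *F12*), close to its share of 25.4% over all tested genes. It had the lowest for 6, among them *Serpina6* (92.3 CPM) and *Pon1* (415 CPM). The share of all tested genes lowest in that mouse is not given here, so the 6 cannot be set against it. *Alb* was also lowest in animal 29 (48039 CPM), whereas animal 33 had the highest *Alb* (144016 CPM) and *Apoa1* (13283 CPM). So the 2 livers with the highest members had opposite albumin levels. With 4 surrogate variables as covariates, 0 of the genes of these signalling and acute phase lists passed (23 with none), against 0.374% of all tested genes. *Serpina1c* belongs to a family of near copies, and its reads may be split among them.

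Markers of immune cells were high in the same mice. The 14 neutrophil markers summed to 92.5 CPM in animal 29 and 38.9 in animal 33, against 4.94 to 14.5 in the other A226Y mice and 5.40 to 9.07 in the other WT mice, and animal 14 (8.66) was within that range. All 14 had their highest A226Y level in animal 29, against 25.4% of all tested genes. In WT 13 of 14 had their highest level in animal 33, for which the share of all tested genes is not given here. The markers include the granule genes *Ngp* (527 counts in animal 29, 138 in animal 33, at most 22 elsewhere) and *Mpo* (183, 50 and at most 9). *S100a9* is also among them (717, 244 and at most 112), while *Ly6g* had at most 4 counts in any mouse. In edgeR 0 of the 7 tested passed between genotypes (background 14.3%), with 1 at an unadjusted p under 0.05 (29.6%). Their part in the members' levels was not tested.

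Kupffer cell and macrophage markers, 14 in all, summed to 1588 CPM in animal 29 against 420.5 to 968 in the other A226Y mice, and to between 627 and 1197 in WT, with animal 33 (1197) and animal 14 (1058) highest. Between genotypes *Clec4f*, a Kupffer cell lectin, was lower in A226Y (−0.65 ± 0.19, edgeR adjusted p = 0.0261; background 7.03%) and the other 13 did not pass, and this call was lost without WT animal 14 (edgeR adjusted p = 0.0577). Without animal 29, 8 of 14 were lower (background 10.3%). That mouse was singled out by its levels of the members. It had the highest A226Y level for 13 of these 14 Kupffer cell and macrophage markers (25.4% of all tested genes). The count without it is thus no independent evidence of a genotype difference. *Marco*, a scavenger receptor of these cells, was at 185 CPM in animal 29 and 5.53 in animal 33, the lowest of all mice, against medians of 21.5 in A226Y and 26.9 in WT. B cell and plasma cell markers summed to 1036 CPM in animal 33 and at most 645 in any other mouse, with *Ighm* at 643 CPM in animal 33. Their part in the members' levels was not tested either.

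**Figure D4:**
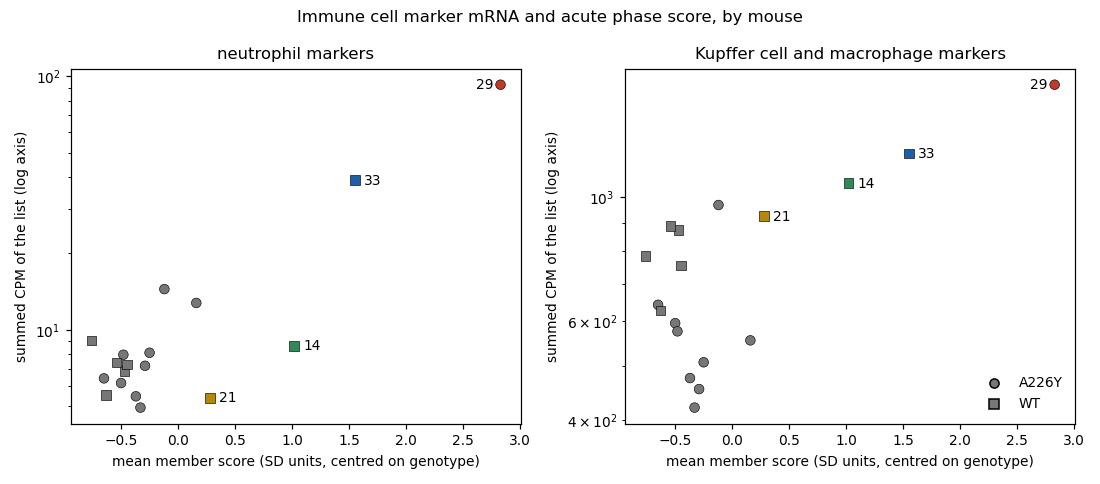
Summed CPM of the neutrophil list (left) and of the Kupffer cell and macrophage list (right) in every mouse (log axes) against the mean member score in SD units; circles are A226Y and squares WT. Animals 29 and 33 stand apart on both axes of the left panel, with neutrophil sums of 92.5 and 38.9 CPM, while animal 14 has a score of 1.02 with a neutrophil sum of 8.66 CPM.

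Of the remaining marker lists, those of adipocytes, stellate cells and hepatocytes held genes that passed between the genotypes, against a background of 14.3%. Of 8 tested T cell and NK cell markers and 8 B cell and plasma cell markers 0 passed in edgeR (1 and 0 at an unadjusted p under 0.05), and of 5 cholangiocyte markers 0 passed (1 unadjusted). *Cidec*, a lipid droplet protein that steatotic hepatocytes also make, was 1 of 2 tested adipocyte markers and was higher in A226Y (1.67 ± 0.40, edgeR adjusted p = 0.0109). Of 8 stellate cell markers the collagens *Col1a1*, *Col1a2* and *Col3a1* were lower (−0.77, −0.33 and −0.60, edgeR adjusted p = 0.0162, 0.0397 and 0.00516), and the call of *Col1a2* was lost with the GC offset (0.0592), with library size only (0.0851) and in most fits that leave out 1 mouse. Of 10 hepatocyte markers *Apob*, *Cps1* and *Tat* were higher and *Serpina1c* and *Asgr1* lower. The call of *Tat* was lost without animals 29 and 33 (edgeR adjusted p = 0.0645) and with limma-voom (0.0684), that of *Apob* with the length (edgeR adjusted p = 0.224) and GC offsets (0.064), and both in some fits that leave out 1 mouse. With surrogate variables 0 of the macrophage, adipocyte, stellate cell and hepatocyte markers passed (background 0.374%), and *Cidec* was at 0.81 (edgeR adjusted p = 0.378), while the cholangiocyte marker *Spp1* passed in that fit (0.89, adjusted p = 0.044).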

How the data were processed

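RNA from the livers of 10 A226Y and 8 WT mice was measured. As deposited by the authors, each mouse has a table of whole-number read counts per Ensembl gene, without normalization. The methods name RSEM with an Ensembl annotation, whereas the submitters' processing notes list fastp, STAR and featureCounts with GRCm38, and which of these wrote the counts is not stated. Strand is not given. Symbols and positions came from GENCODE M21 (GRCm38), which matched 22214 of 22524 genes.

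Genes with 10 counts or more in 50% of the mice of one genotype were compared with edgeR 4.0.16 (R 4.3.3), using TMM scaling, the quasi-likelihood test and Benjamini-Hochberg adjustment over 13353 genes. The standard error is the fold change over the square root of F. The common biological coefficient of variation was 0.194. For genes with high counts, spread between mice rather than counting error thus set the precision. This need not hold for tested genes with few counts, such as *Tnf*, and single genes can vary more or less than the common value. The labels pair no mice between the groups. The procedure was tested on simulated data.

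Alternatives were other scalings and filters, DESeq2 1.42.0, limma-voom 3.58.1 with sample weights, 4 surrogate variables (sva 3.50.0), length and GC offsets, and leaving out each mouse or animals 29 and 33. Leaving out animals 14 and 21 as well, and DESeq2 with no count replaced, were added after seeing the data. The members and all gene lists were chosen with earlier results of these data known, and some genes are left out of the lists because they are not reported here. Named are the members, the list genes with an adjusted p under 0.05, up to 4 defining genes per list and the genes nearest to the member score. *Il1a*, *Il1b*, *Tnf*, *Il1r1*, *Rbp4*, *Hpx*, *Mt1*, *Mt2*, *Hamp*, *Ighm*, *Spp1*, *Trf*, *Itih2*, *Serpina7*, *F12*, *Alb* and *Apoa1* were singled out after their values were seen. The study's own analyses of proteins and of *Rps2*-loxP mice were not used here.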

Additional observations from a re-analysis of the deposited data

Results flagged for a closer look

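All 10 members had their highest A226Y level in animal 29, and in each the gap between it and the next mouse was a larger part of the group's range (log2 CPM) than Dixon's critical value of 0.466 for 10 mice. The gap divided by the range was 0.842 for *Saa1*, 0.877 for *Saa2*, 0.610 for *Saa3*, 0.744 for *Lcn2*, 0.645 for *Orm1*, 0.588 for *Orm2*, 0.588 for *Hp*, 0.641 for *Apcs*, 0.821 for *Itih4* and 0.648 for *Fgb*. In WT the same measure stood out once, for *Fgb* in animal 33, at 0.558 against a critical value of 0.526 for 8 mice. Chance alone marks about 1 group in 20, and the 10 genes of 1 mouse share a library, so these are not independent. Animals 29 and 33 had been singled out by earlier results on these genes, so the values describe how far they stand apart and are no test.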

How the results depend on the processing

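Over the alternatives, 0 of 10 members passed with other scalings and filters, the robust fit, limma-voom (background 22%) and length or GC offsets. With surrogate variables 0 passed too, but only 0.374% of all tested genes did, so that fit says little about the members. The number of members called was 3 with DESeq2 (background 18.1%) and 3 without animals 29 and 33 (17.8%). It was 1 without 29, 33 and 14 (12.5%), and 1 without 29, 33, 14 and 21 (8.04%). Leaving out each mouse in turn gave 0 to 5, the 5 without animal 29 (background 19.2%). The signs for the members other than *Itih4* turned in at least 1 fit, and apart from single mice the cause was not tested. For *Saa1* the log2 fold change was −1.75 with DESeq2, −1.16 with limma-voom, −2.60 without 29 and 33, −1.08 without 14 too and −0.32 without 21 too. For *Saa2* these values were −1.90, −1.39, −2.84, −1.43 and −0.70. *Saa3* was at −0.03 with limma-voom, −0.13 without 29 and 33 and −0.11 without 14 too. *Lcn2* was at 0.12 with library size only, 0.01 with the length offset, 0.63 with surrogate variables, 0.30 without 29, 33 and 14 and 0.63 without 21 too. *Orm1* was at 0.03 with library size only and 0.00082 with the length offset. *Orm2* was at −0.33 with DESeq2, −0.05 with limma-voom and −0.38 without 29 and 33, and *Hp* at −0.01 there. *Apcs* was at 0.02 with surrogate variables, 0.06 without 29, 33 and 14 and 0.04 without 21 too, and *Fgb* at 0.04, 0.00055 and 0.04. Leaving out each mouse in turn gave −2.83 to 3.12 for *Saa1*, −3.02 to 4.09 for *Saa2*, −0.10 to 0.46 for *Saa3*, −2.03 to 0.79 for *Lcn2*, −0.81 to 0.24 for *Orm1*, −1.20 to 2.61 for *Orm2*, −0.13 to 0.24 for *Hp*, −0.68 to 0.22 for *Apcs* and −0.34 to 0.05 for *Fgb*. For *Itih4* the range was −0.60 to −0.05, the latter without WT animal 33 (edgeR adjusted p = 0.925). With surrogate variables *Itih4* was at −0.01 (edgeR adjusted p = 0.964).

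Of all tested genes, 1910 passed, against 2943 with limma-voom, 50 with surrogate variables and 1067 without 29, 33, 14 and 21, and 1255 (without WT animal 14) to 2560 (without animal 29) leaving out single mice. In the signalling and acute phase lists 23 genes passed, against 36 with limma-voom, 35 without animals 29 and 33, 0 with surrogate variables and 14 without the 4 mice, and 15 (without A226Y animal 32 or WT animal 14) to 37 (without animal 29). With surrogate variables *Tat* was at −0.04. With library size only, 67.9% of the calls were higher in A226Y instead of 50.8%. No paired analysis was possible because the groups share no animal number. At these totals *Il6*, *Osm*, *Lif*, *Il11*, *Il22* and 7 of 14 neutrophil markers reached the count minimum in too few mice to be tested. Whether deeper sequencing would have changed that was not tested.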
